A study of Homo sapiens with 18 samples.

Results

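Spheroids of Jag1KO + rescue cells, in which a Jagged1-containing plasmid had been put back into JAG1 knockout cells, were compared with spheroids of the parental Jag1WT cells, to ask how far the add-back culture had returned to the parental state at a similar JAG1 mRNA level. Both are MDA-MB-231 cells, an established triple-negative breast cancer line, grown in 3D Matrigel and collected on day 7. The comparison took 6 of the 18 libraries of the series, 3 of Jag1KO + rescue and 3 of Jag1WT. Its members were the 12843 of 21411 genes that exceeded 1 CPM in at least 3 of these 6 libraries. CPM is the read count scaled to library size and then by trimmed mean of M values. A gene above 1 CPM in no library of 1 group passed only through the other group, so the filter favors a difference in such genes. The Jag1KO line is a mixture of single-cell clones edited with Cas9. The rescue plasmid and the empty plasmid of the Jag1KO + ctrl cells went into that mixture, so that both transfected lines share the edited background, the cloning step and drug selection, none of which the parental cells underwent. Jag1KO, Jag1KO + ctrl and siCtrl spheroids, the last being parental cells transfected with a nontargeting siRNA, had 3 libraries each and are given for orientation. The labels number the samples as biological replicates. The p values of the main test measure the spread between them without pairing same-numbered libraries, and a fit blocked on that number is given beside it.

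Jagged1, the product of JAG1, is a membrane-bound ligand that activates Notch receptors on neighboring cells. Ligand binding lets ADAM proteases and γ-secretase release the receptor's intracellular domain, which joins RBPJ on DNA and switches on targets such as HES1, a transcriptional repressor. In breast cancer Jagged1 is known for its role in stem-like cells, invasion and metastasis, and matrix genes are among those that respond to Notch signaling in several tissues.

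Libraries held 13479590 to 15328059 gene reads in Jag1WT and 14813722 to 18327890 in Jag1KO + rescue. The 10 most abundant genes took 6.89 to 7.70% of the reads of these 6 libraries. Of the 8 MDA-MB-231 markers, all passed the filter, with VIM at 3087 and 2948 CPM and EGFR at 455 and 487 CPM in Jag1WT and Jag1KO + rescue. KRT19 was called lower in Jag1KO + rescue (log2 fold change −0.96, edgeR adjusted p = 0.0281). The luminal markers ESR1 and PGR stayed under the filter (0 CPM in Jag1WT, 0.0454 and 0.673 CPM in Jag1KO + rescue). Of 10 luminal markers 6 passed it, and of these FOXA1 was called higher at 3.51 CPM in the rescue against 0.683 CPM in Jag1WT. The other 5 were not called, and 4 of the 6 had a negative log2 fold change (median −0.15). Of 10 fibroblast, 6 endothelial and 6 leukocyte markers, 1, 2 and 2 passed the filter. Among them KDR, an endothelial receptor, was called higher. KRT19 and KDR were called only without Jag1KO + rescue replicate 1 or 2 among the fits that left out a library (adjusted p up to 0.160 and 0.119), and FOXA1 only without Jag1KO + rescue replicate 2 (up to 0.178). In mean log2(CPM + 1), the passing fibroblast marker was at 2.49, 3.18 and 2.56 in Jag1WT and 2.83, 3.46 and 3.17 in the rescue. The 2 passing leukocyte markers averaged 4.13, 4.46 and 4.41 in Jag1WT and 3.87, 4.45 and 4.27 in the rescue. Of the markers under the filter, DCN, CDH5 and PTPRC were at 0.0210, 0.0251 and 0.0210 CPM in Jag1WT and at 0, 0 and 0.0391 CPM in the rescue. The part of any such cells in the results was not tested. In bulk libraries fewer cells of a type and less RNA per cell cannot be told apart. Libraries of Jag1KO and of Jag1KO + ctrl stood apart within their group (root mean square difference of log2(CPM + 1) 0.251 to 0.552 and 0.279 to 0.632), beside 0.341 to 0.563 among the Jag1KO + rescue and 0.248 to 0.355 among the Jag1WT libraries. The mean log2(CPM + 1) of 54 G2/M genes was 4.06, 6.01 and 6.09 in Jag1KO, 6.11, 6.55 and 4.67 in Jag1KO + ctrl, 4.28, 5.41 and 4.26 in Jag1WT and 4.06, 5.55 and 4.35 in the rescue, and its part in the values given for Jag1KO and Jag1KO + ctrl was not tested.

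JAG1 (chromosome 20, 10637684 to 10673999, GRCh38) was not called different between the rescue and the parental spheroids. It measured 433, 585 and 522 CPM in Jag1WT and 534, 657 and 646 CPM in Jag1KO + rescue, so that the lowest rescue library lay within the parental range and the other two above it. The means were 513 ± 76.7 and 612 ± 67.9 CPM (SD, n = 3), and the log2 fold change was 0.23 (95% confidence interval −0.11 to 0.56, edgeR adjusted p = 0.372). An exact two-sided permutation test on log2(CPM + 1) gave p = 0.2, where 0.1 is the smallest value that 3 against 3 libraries allow. Expressed against the Jag1WT mean, JAG1 stood at 119% in the rescue, at 30.5% in Jag1KO (116, 205 and 149 CPM) and at 25.4% in Jag1KO + ctrl (110, 134 and 147 CPM). Reads from the plasmid and from the edited gene cannot be told apart in gene counts, so these values give all JAG1 reads and not how many come from mRNA that encodes a working protein. The plasmid carried a Jagged1 cDNA. If its transcript differs in length from the native one, a similar CPM need not mean a similar number of transcripts.

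HES1, the classic Notch target, averaged 79.5% of the Jag1WT level in the rescue with a wide spread, and 12.1% in Jag1KO. Of the genes tested with a promoter in the RefSeq table, 10184 in all, 19.4% carried the core of the RBPJ motif, TGGGAA, at least 1 time on either strand of the 250 bases before the start and 2.6% at least 2 times. The HES1 promoter carried 2, beginning 84 and 70 bases before the start. It is shown because HES1 serves as the readout of Notch activity here, in RefSeq GRCh38.p14 on the plus strand at chr3:194135898-194136147, with the motif in capitals.
HES1: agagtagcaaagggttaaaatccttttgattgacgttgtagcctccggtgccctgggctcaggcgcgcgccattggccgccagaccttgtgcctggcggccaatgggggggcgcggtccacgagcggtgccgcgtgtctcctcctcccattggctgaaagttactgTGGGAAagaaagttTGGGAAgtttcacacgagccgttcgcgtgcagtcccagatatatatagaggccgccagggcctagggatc
HES1 measured 13.4, 11.2 and 22.3 CPM in Jag1WT and 22.4, 4.88 and 9.97 CPM in Jag1KO + rescue, so that the groups overlapped. In Jag1KO it was 3.72, 0.927 and 1.05 CPM, and in Jag1KO + ctrl 0.659, 0.240 and 1.74 CPM. All 3 rescue libraries were thus above all 6 libraries of those groups. The log2 fold change between rescue and parental spheroids was −0.37 (95% confidence interval −1.49 to 0.76, edgeR adjusted p = 0.682), an interval too wide to tell full from partial return. It ran from 0.0060 without Jag1KO + rescue replicate 2 to −1.10 without Jag1KO + rescue replicate 1, with no call in either fit.

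**Figure D1:**
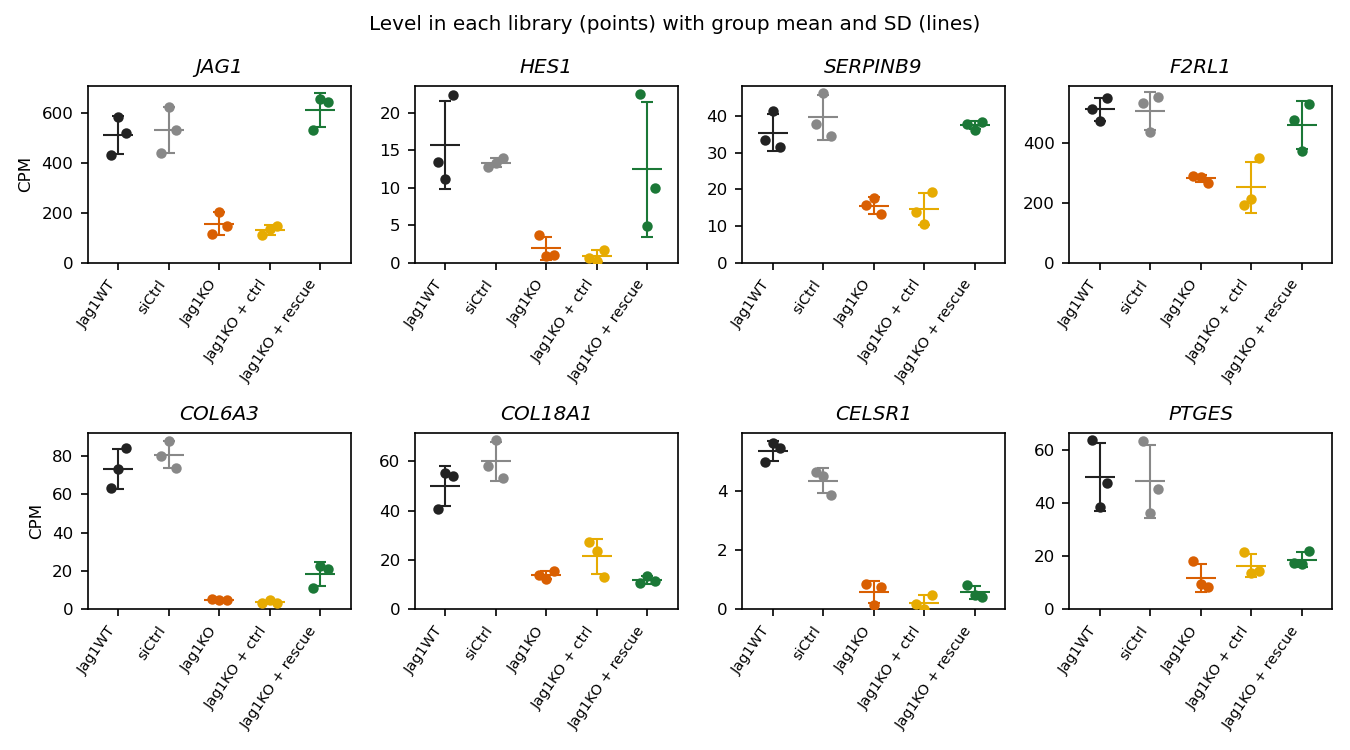
Level in CPM (linear axes from 0) of 8 genes in each library (points) of 5 groups, with the group mean and SD (lines, n = 3). The Jag1KO + rescue points reach the Jag1WT points for JAG1, HES1, SERPINB9 and F2RL1, and stay below all Jag1WT points for COL6A3, COL18A1, CELSR1 and PTGES.

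No Notch component passed the test in either direction. The call rule used throughout was a Benjamini-Hochberg adjusted p below 0.05 in the quasi-likelihood test of edgeR and a fold change above 1.5, and it called 3.47% of all genes tested. Of the Notch ligands, receptors, targets and other machinery, 4, 2, 10 and 26 genes were tested and 0 were called. Among the ligands JAG1 dominated on the per-length RPKM scale, at 85.8 RPKM in Jag1WT and 102 RPKM in the rescue, against 0.269 and 0.235 RPKM for JAG2 and 5.31 and 3.58 RPKM for the noncanonical ligand DNER. NOTCH2 was the more abundant receptor, at 35.1 and 40.3 RPKM against 7.44 and 6.89 RPKM for NOTCH1. DLK2, a noncanonical ligand, differed by a log2 fold change of 1.38 (adjusted p = 0.0902) and NRARP, a Notch feedback inhibitor, by 1.26 (adjusted p = 0.125). Blocking on replicate number turned both into calls, at log2 fold changes of 1.41 and 1.29, and 1 machinery gene was then called lower. NRARP averaged 0.634 CPM in Jag1WT and 1.59 CPM in the rescue. It was under 1 CPM in all Jag1WT libraries, so it passed the filter only through the rescue, which favors a difference. The block called 3.53% of all genes tested higher and 6.95% lower, the shares against which all counts with the block are to be read. DLK2 was also called without Jag1KO + rescue replicate 2 and in the fit of all 18 libraries. HEY1 was 8.25 ± 0.650 CPM in Jag1WT and 7.97 ± 0.724 CPM in the rescue, and CCND1 430 ± 44.6 and 437 ± 96.5 CPM. MYC measured 345, 385 and 391 CPM in Jag1WT and 654, 489 and 551 CPM in the rescue, groups that did not overlap, with an adjusted p of 0.0503 at a log2 fold change of 0.57, and it was called without Jag1KO + rescue replicate 2 and by limma.

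Some genes that were higher in Jag1WT than in Jag1KO lay near the parental level in the rescue and others did not. A list of 20 JAG1-linked genes and one of 7 that were lower in Jag1WT than in Jag1KO were drawn up with results of these libraries known, so the direction of their members is not independent evidence. Of the 20, all but NPTX1 had a higher mean in Jag1WT than in Jag1KO, and NPTX1 had 0 reads in both. Of the 20, 11 were not called in rescue against parental spheroids, 8 were called lower and 1, NPTX1, higher, beside 1.99% and 1.49% of all genes. Their median log2 fold change was −0.80, beside −0.0045 over all genes tested. SERPINB9, an inhibitor of granzyme B, measured 33.5, 41.2 and 31.6 CPM in Jag1WT and 37.8, 36.2 and 38.2 CPM in the rescue, against 15.6 ± 2.21 CPM in Jag1KO. Its log2 fold change to the parental cells was 0.05 (95% confidence interval −0.25 to 0.36), which places the rescue near the parental level with a narrow margin. F2RL1, the protease-activated receptor 2, stood at 516, 476 and 553 CPM in Jag1WT and 478, 375 and 533 CPM in the rescue (log2 fold change −0.19, interval −0.51 to 0.13). In Jag1KO it was 282 ± 13.1 CPM. TGFBR1, the type I TGFβ receptor, was at 80.5% of the Jag1WT mean in the rescue and at 51.8% in Jag1KO, and its rescue and parental libraries did not overlap (125 ± 6.68 CPM in Jag1WT and 101 ± 10.7 CPM in the rescue, adjusted p = 0.0997). IL6, an inflammatory cytokine, and the stromelysin MMP10 overlapped between rescue and parental spheroids, with 95% confidence intervals of −1.49 to 0.45 and −0.30 to 1.04 on the log2 scale. ITGA5, the fibronectin receptor subunit, overlapped too (378, 475 and 443 CPM against 234, 386 and 375 CPM).

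Among the 8 genes called lower were 3 collagen chains and CELSR1. COL6A3, a collagen VI chain, measured 63.1, 73.0 and 83.9 CPM in Jag1WT and 11.0, 22.5 and 21.0 CPM in the rescue, and Jag1KO libraries lay lower still at 5.22, 4.79 and 4.87 CPM. The rescue thus reached 24.7% of the Jag1WT mean, Jag1KO 6.76% and Jag1KO + ctrl 4.80% (log2 fold change rescue to parental −2.04 ± 0.26 SE, adjusted p = 0.00768). COL18A1, the basement membrane collagen that holds endostatin, measured 40.6, 55.2 and 54.1 CPM in Jag1WT and 10.5, 13.5 and 11.3 CPM in the rescue, with Jag1KO at 13.9, 12.3 and 15.5 CPM. Its rescue libraries overlapped those of Jag1KO and lay far below the parental ones (log2 fold change −2.11 ± 0.18 SE, adjusted p = 0.00101). CELSR1, an atypical cadherin of planar cell polarity, was 5.37 ± 0.340 CPM in Jag1WT, 0.574 ± 0.215 CPM in the rescue and 0.589 ± 0.379 CPM in Jag1KO (log2 fold change −3.24, adjusted p = 0.00178). PTGES, which makes prostaglandin E2, was at 37.5% of the parental mean in the rescue, NTN4 at 64.8%, the chemokine receptor CXCR4 at 23.2% and the latent TGFβ-binding protein LTBP3 at 48.3%. In Jag1KO these 4 genes were at 23.7, 51.5, 33.8 and 51.9%. COL6A2 was scarce throughout, at 1.86 ± 0.283 CPM in Jag1WT and 0.0650 ± 0.0684 CPM in the rescue. Both COL6A2 and CELSR1 were under 1 CPM in all rescue libraries, so they passed the filter only through Jag1WT. KRT79, ITGB3 and AFAP1L2 did not overlap between the groups and were lower in the rescue without passing the test (adjusted p 0.102, 0.112 and 0.0706), but were called lower once blocked on replicate number (log2 fold changes −1.29, −1.01 and −1.05). Without Jag1KO + rescue replicate 2 KRT79 and ITGB3 were called as well, and AFAP1L2 without Jag1KO + rescue replicate 1. LTBP1 was near the threshold (log2 fold change −0.56, adjusted p = 0.0545). Without Jag1WT replicate 3 the calls of COL6A3, PTGES and CXCR4 were lost (adjusted p 0.0592, 0.0671 and up to 0.0577), as was that of COL6A2 without Jag1KO + rescue replicate 3 (0.0577). That of CXCR4 also went without the latter. NTN4 and LTBP3 stayed called only without Jag1KO + rescue replicate 2 (adjusted p up to 0.170 and 0.171 without another library), and NTN4 was not called in a fit of all 18 libraries.

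Of the 7 genes that were lower in Jag1WT than in Jag1KO, 6 were called higher in the rescue than in parental spheroids, beside 1.49% of all genes. The median log2 fold change of the 7 was 2.58. CSMD1, a large membrane protein with complement-control domains, measured 0.757, 0.376 and 0.587 CPM in Jag1WT, 12.3, 19.0 and 15.9 CPM in the rescue and 8.35, 11.1 and 10.3 CPM in Jag1KO. IGFN1, an immunoglobulin-domain protein, stood at 8.11 ± 1.10 CPM in Jag1WT, 127 ± 42.2 CPM in the rescue and 71.1 ± 10.3 CPM in Jag1KO. ADAMTS1, a secreted protease that cleaves proteoglycans, was 13.0 ± 2.78 CPM in Jag1WT, 79.3 ± 7.70 CPM in the rescue and 44.6 ± 5.60 CPM in Jag1KO. KCNN3, a calcium-activated potassium channel, lay between the groups, with 6.00, 7.22 and 7.37 CPM in Jag1WT, 16.4, 18.1 and 14.9 CPM in the rescue and 30.9, 37.0 and 31.8 CPM in Jag1KO. ADAMTS9, a protease related to ADAMTS1, was 33.8 ± 5.46 CPM in Jag1WT, 99.8 ± 38.7 CPM in the rescue and 97.1 ± 29.9 CPM in Jag1KO. EML1, the gene not called, measured 1.30 ± 0.865 CPM in Jag1WT, 2.86 ± 0.122 CPM in the rescue and 7.23 ± 0.419 CPM in Jag1KO (adjusted p = 0.195 against Jag1WT). KCNN3 was not called when Jag1WT replicate 1 or 3 or Jag1KO + rescue replicate 3 was left out (adjusted p up to 0.0709), nor ADAMTS9 when any Jag1WT library or Jag1KO + rescue replicate 3 was (up to 0.142).

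Across the transcriptome, 446 of the 12843 genes were called between Jag1KO + rescue and Jag1WT, 191 of them higher (1.49%) and 255 lower (1.99%). An unadjusted p below 0.05 was reached by 3216 genes (25%), and 3921 genes (30.5%) had groups that did not overlap. A fit blocked on replicate number called 453 higher (3.53%) and 892 lower (6.95%). Scaled by library size alone, the split was 146 higher and 399 lower. For comparison, each on its own fit but against the same Jag1WT libraries, 91 genes (0.704%) were called in Jag1KO, 139 (1.07%) in Jag1KO + ctrl and 0 in siCtrl, where edgeR gave 177 genes (1.38%) an unadjusted p below 0.05 and no other tool was run. That 1.38% is under the share that a threshold of 0.05 gives by chance where nothing differs. With siCtrl in place of Jag1WT as the parental reference, 441 genes (3.44%) were called in the rescue, 185 higher (1.44%) and 256 lower (2%), and 136 of the 191 and 182 of the 255 genes were among them. The median absolute log2 fold change from Jag1WT was 0.23 in the rescue, 0.15 in Jag1KO, 0.23 in Jag1KO + ctrl and 0.085 in siCtrl. A count of calls also follows the spread between replicates, which differed: the biological coefficient of variation was 0.179 in rescue against parental spheroids, 0.188 for Jag1KO, 0.207 for Jag1KO + ctrl and 0.138 for siCtrl. The differences between these counts were not tested.

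The number of calls depended on which library was left out. These fits had unequal groups and no block on replicate number. Same-numbered libraries varied together, and the part of that in the counts was not tested. The blocked fit of all 6 libraries held 190 of the 191 genes called higher and 255 of the 255 called lower. Without Jag1KO + rescue replicate 2, 542 genes were called higher and 725 lower. The counts were 42 and 21 without Jag1KO + rescue replicate 3, 47 and 39 without Jag1WT replicate 1, 76 and 65 without Jag1WT replicate 2, and 43 and 20 without Jag1WT replicate 3. Of the 191 and 255 genes, 38 and 16 were called in all 6 fits that left out a library. The 203 and 234 calls without Jag1KO + rescue replicate 1 held 144 and 188 of them. All 446 kept their direction in each of those fits, in the 7 other fits to the same 6 libraries and in the fit of all 18.

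**Figure D2:**
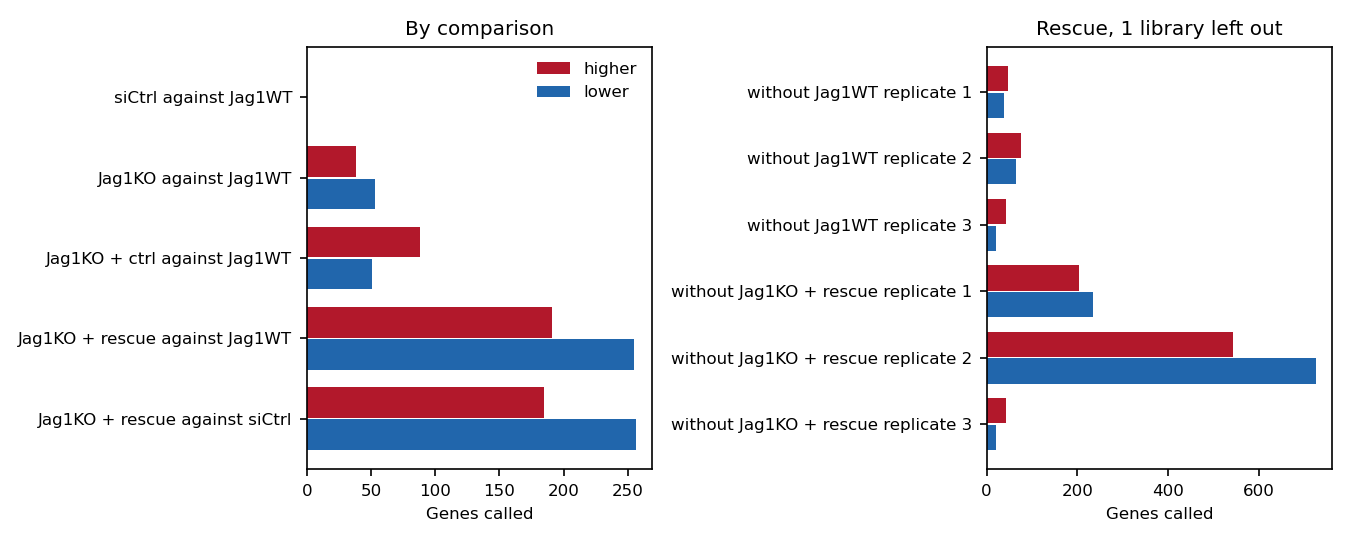
Left, number of genes called higher (red) and lower (blue) in 5 comparisons of 3 against 3 libraries. Right, the same counts for Jag1KO + rescue against Jag1WT with 1 library left out, which run from 42 to 542 higher and from 20 to 725 lower.

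**Figure D3:**
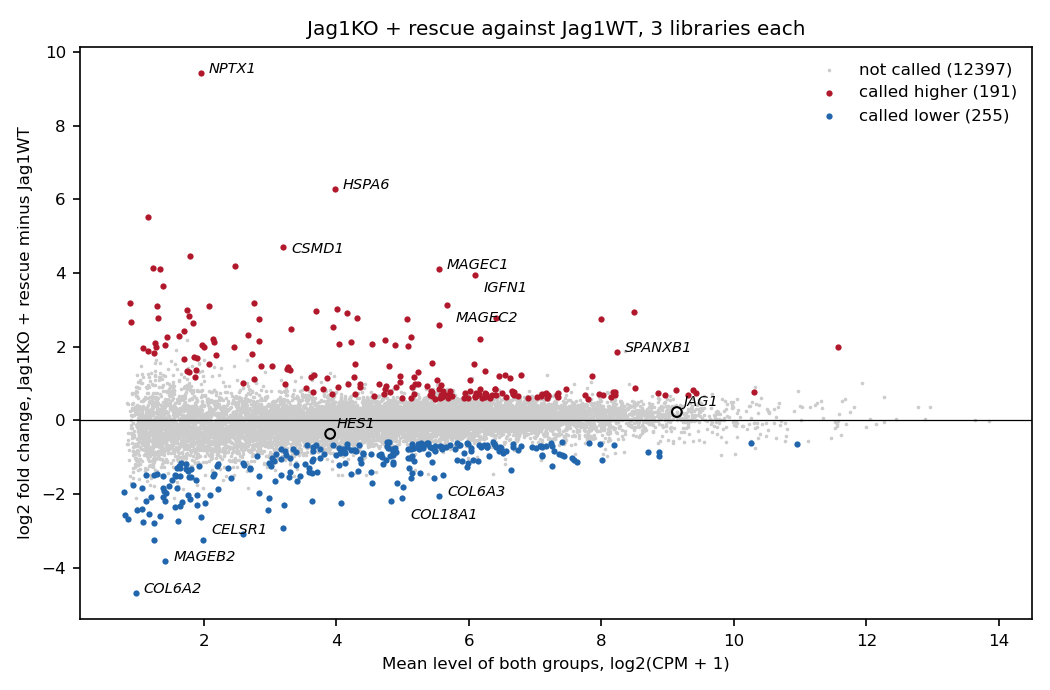
Log2 fold change of Jag1KO + rescue over Jag1WT against the mean level of both groups on the log2(CPM + 1) scale, 1 point per gene tested. Red points are the 191 genes called higher and blue points the 255 called lower, and open circles mark JAG1 and HES1, which lie among the grey genes that were not called.

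The genes that stood farthest above the parental level were a mixed group. NPTX1, HSPA6, CSMD1 and LINC02864 were under 1 CPM in all Jag1WT libraries, so they passed the filter only through the rescue. NPTX1, a neuronal pentraxin, had 0 reads in all Jag1WT, siCtrl, Jag1KO and Jag1KO + ctrl libraries and 4.77, 7.42 and 5.10 CPM in the rescue. Taking 3 reads per library as the limit that a count of 0 allows, it was at least 28.3-fold higher than in Jag1WT, a limit that covers counting error only. NPTX1 lies on chromosome 17 from 80466834 to 80476607. Between Jag1KO + rescue and Jag1KO + ctrl it was not called (adjusted p = 0.0716). The 1 gene (0.00776%) called in that fit was JAG1 (log2 fold change 2.22, adjusted p = 0.0227), and 3965 genes (30.8%) had an unadjusted p below 0.05. HSPA6, a strictly stress-induced HSP70, measured 0.379, 0.301 and 0.391 CPM in Jag1WT and 34.4, 14.1 and 38.7 CPM in the rescue (log2 fold change 6.28 ± 0.48 SE, adjusted p = 0.000681). It was uneven elsewhere, with 5.10, 1.26 and 27.3 CPM in Jag1KO + ctrl, and reads of HSPA6 and its near-identical relative HSPA7 may be split between the pair. The immediate-early genes FOS and FOSB, picked after their values were seen, were called in all 6 fits without a library (FOSB not with all 18 libraries), at 4.75 ± 1.06 against 33.1 ± 10.5 CPM and 11.6 ± 3.52 against 56.4 ± 18.5 CPM. IL13RA2, the decoy receptor for interleukin-13, picked in the same way, rose from 23.5, 20.4 and 18.9 CPM to 140, 132 and 169 CPM, and Jag1KO held 78.3 ± 10.4 CPM. The long noncoding RNA LINC02864 was 0.460 ± 0.189 CPM in Jag1WT, 8.61 ± 1.54 CPM in the rescue and 4.01 ± 0.906 CPM in Jag1KO. The other leading genes, MAGEC1, MAGEC2 and SPANXD, are X-linked cancer-testis genes and come below.

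The genes farthest below the parental level had varied roles. Where a pair of values is joined by "against" from here on, Jag1WT comes first and the rescue second. IGSF3, an immunoglobulin superfamily membrane protein, measured 13.1, 14.2 and 13.8 CPM in Jag1WT and 2.73, 2.54 and 3.17 CPM in the rescue (log2 fold change −2.31 ± 0.18 SE, adjusted p = 0.000681), with Jag1KO at 6.32 ± 1.39 CPM. ZNF518B, a zinc finger protein, went from 18.6 ± 1.41 to 4.16 ± 1.27 CPM, with Jag1KO at 8.62 ± 1.20 CPM. GJB2, the gap junction protein connexin 26, and KRT81, a hair keratin, both picked after their values were seen, were at 48.5 ± 6.99 against 14.1 ± 0.465 CPM and 50.4 ± 4.99 against 17.5 ± 1.77 CPM. Periplakin, PPL, which links keratins to desmosomes, measured 9.0 ± 1.35 against 1.09 ± 0.874 CPM, the NADPH oxidase NOX5 14.4 ± 4.96 against 1.96 ± 1.22 CPM and the metastasis-associated calcium-binding protein S100A4 25.9 ± 4.2 against 5.60 ± 3.37 CPM. The aldehyde dehydrogenase ALDH3A1 was at 5.02 ± 0.983 against 1.08 ± 0.197 CPM. For ALDH3A1 the Jag1KO libraries (2.74, 7.26 and 8.69 CPM) lay on both sides of the parental mean, unlike those of the rescue. PPL and S100A4 were called without Jag1KO + rescue replicate 1 or 2 but not without any of the other 4 libraries (adjusted p up to 0.109 and 0.171). NOX5 lost its call without Jag1WT replicate 2 or 3 or Jag1KO + rescue replicate 3 (up to 0.109), and ALDH3A1 without Jag1KO + rescue replicate 3 (0.0591).

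Collagens and laminins had more calls below than above the parental level. Of 20 collagens tested, 4 were called lower and 1 higher, beside 1.99% and 1.49% of all genes, and the median log2 fold change was −0.36. COL6A1, COL6A2 and COL6A3, the chains of the common collagen VI trimer, were among those called lower. COL6A2, under 1 CPM in all rescue libraries, passed the filter only through Jag1WT, so the filter favored a difference in it. On the per-length scale COL6A1 went from 12.9 ± 2.52 to 4.91 ± 0.0417 RPKM, COL6A3 from 6.75 ± 0.959 to 1.67 ± 0.576 RPKM and COL6A2 from 0.391 to 0.0137 RPKM. COL6A1 in CPM was 45.9, 51.2 and 66.4 in Jag1WT and 20.8, 20.9 and 20.6 in the rescue, and Jag1KO lay between at 42.1, 27.9 and 31.3 CPM. COL12A1, a fibril-associated collagen, was called higher (41.1, 45.9 and 33.5 CPM against 74.8, 102 and 86.2 CPM) and was 74.9 ± 12.4 CPM in Jag1KO. Of 11 laminins and other basement membrane genes, 2 were called lower, LAMA3 (159 ± 14.2 against 97.4 ± 9.32 CPM) and LAMA5 (258 ± 88.0 against 125 ± 7.63 CPM), with a list median of −0.48. Jag1KO was at 153 ± 15.0 CPM for LAMA3, with libraries that overlapped the parental ones. Of 29 other matrix glycoproteins, 2 were called higher, the fibrillin FBN2 (1.54 ± 0.643 against 10.8 ± 6.22 CPM) and the thrombospondin THBS2 (16 ± 2.38 against 32.3 ± 7.90 CPM), and 2 lower, LTBP3 and NTN4. When blocked on replicate number, 2 collagens were called higher, 1 laminin-list gene higher and 5 lower, and 4 and 7 other glycoproteins. Leaving out Jag1WT replicate 1 or 3 or Jag1KO + rescue replicate 3 ended the calls of COL12A1 (adjusted p up to 0.0814) and LAMA3 (up to 0.121). Those of LAMA5 and THBS2 held only without Jag1KO + rescue replicate 2 (up to 0.148 and 0.169), and that of FBN2 only without Jag1KO + rescue replicate 1 or 2 (up to 0.136).

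Matrix-remodeling enzymes and their inhibitors were called in both directions, with 4 of 36 called higher and 5 lower, beside 1.49% and 1.99% of all genes. The list had a median log2 fold change of −0.06. ADAMTS1 and ADAMTS9 were among those called higher. The metalloproteinase inhibitor TIMP3 was lower (117, 110 and 129 CPM against 65.6, 74.0 and 65.4 CPM). BMP1, the enzyme that removes the C-propeptide of fibrillar procollagens, was lower too (36.9 ± 3.03 against 20.9 ± 0.972 CPM), and Jag1KO stood at the same level (20.3 ± 1.21 CPM). ADAMTS15 was 13.0 ± 2.41 CPM in Jag1WT and 4.61 ± 1.42 CPM in the rescue. With the block 10 of the 36 were called lower, beside 6.95% of all genes. TIMP3 and BMP1 were not called without Jag1WT replicate 1 or 3 or Jag1KO + rescue replicate 3 (adjusted p up to 0.0854 and 0.109), nor was TIMP3 with all 18 libraries in 1 fit. ADAMTS15 was called only without Jag1KO + rescue replicate 1 or 2 among those fits (up to 0.129).

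Of 18 genes with integrin symbols, 3 were called lower and 0 higher, beside 1.99% and 1.49% of all genes. A negative log2 fold change was found in 16 of the 18 (median −0.55), beside 6489 of all 12843 genes. The 3 called lower were ITGA3 (2219, 2373 and 2586 CPM against 1422, 1635 and 1673 CPM), the collagen receptor subunit ITGA1 (214 ± 51.7 against 91.5 ± 27.3 CPM) and the hemidesmosomal ITGB4 (26.6, 47.1 and 60.3 CPM against 3.61, 15.1 and 11.4 CPM). The symbol pattern also took in the non-integrins ITGB3BP, ITGB1BP1 and ITGBL1. ITGB1, the partner of most α subunits, had a positive value that was not called (log2 fold change 0.20, adjusted p = 0.248), and ITGAV and ITGA6 were at −0.04 and −0.03. Axon guidance genes, many of which also act in tumor cell migration, gave 6 lower and 0 higher of 39 tested (median −0.27). The shares over all genes were again 1.99% and 1.49%. PLXNA1, a semaphorin receptor, measured 303, 348 and 386 CPM in Jag1WT and 173, 160 and 165 CPM in the rescue, with Jag1KO at 208 ± 35.2 CPM (log2 fold change −1.09 ± 0.12 SE, adjusted p = 0.0043). PLXND1 went from 64.8 ± 17.7 to 22.3 ± 5.21 CPM and SEMA6B from 21.5 ± 3.19 to 9.39 ± 1.29 CPM. When blocked, 8 integrin-symbol and 12 axon guidance genes were called lower, beside 6.95% of all genes. ITGA3 was called only without Jag1KO + rescue replicate 2 and ITGA1 and ITGB4 only without Jag1KO + rescue replicate 1 or 2 (adjusted p up to 0.185, 0.177 and 0.217), and ITGB4 was not called against siCtrl. The call of PLXND1 was lost without Jag1WT replicate 1 or 3 (up to 0.0577) and that of SEMA6B without Jag1WT replicate 2 or 3 or Jag1KO + rescue replicate 3 (up to 0.105).

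**Figure D4:**
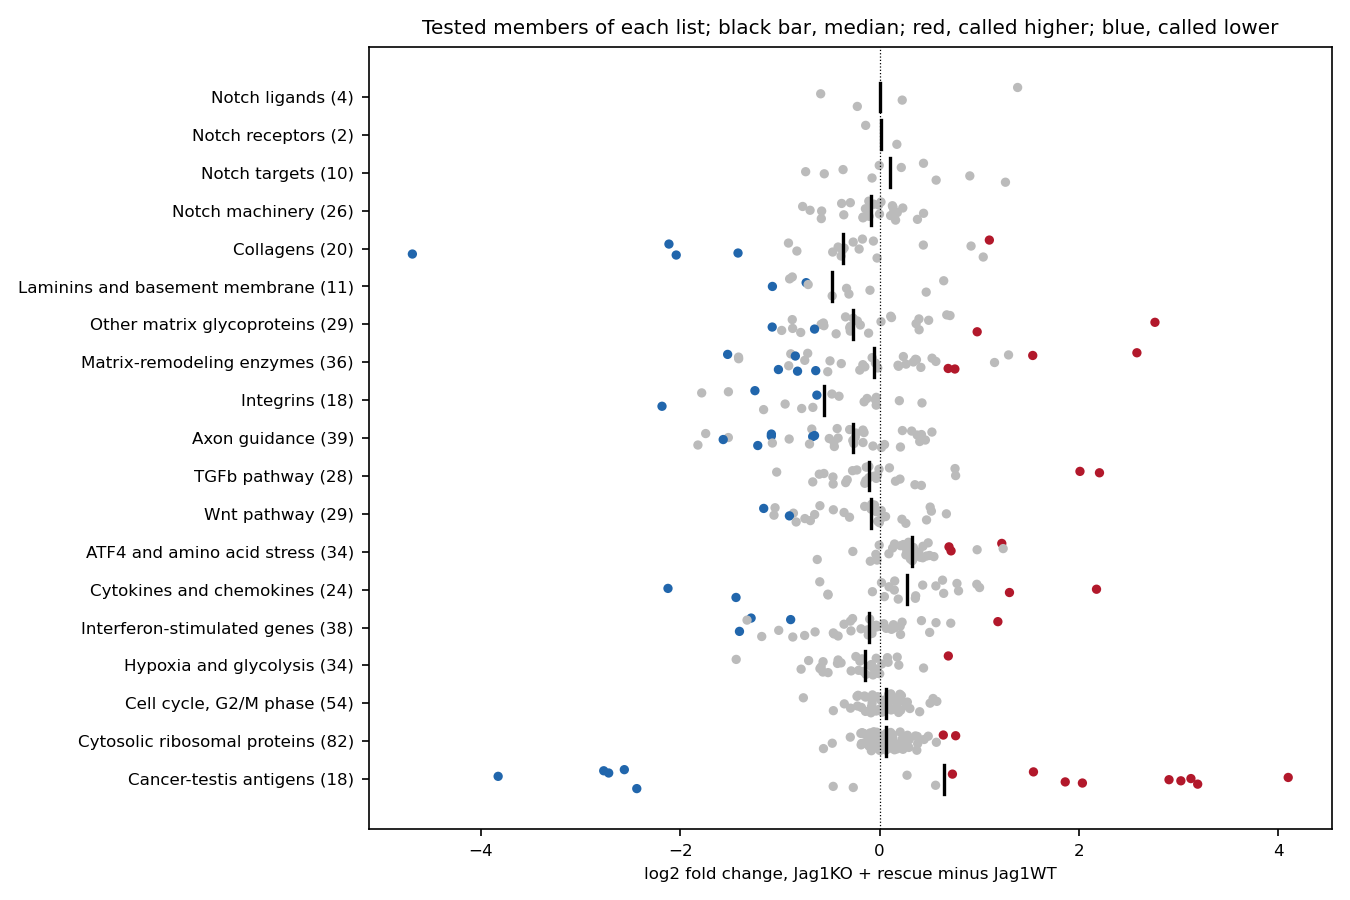
Log2 fold change (Jag1KO + rescue over Jag1WT) of each tested member of 19 gene lists, with the number tested in parentheses and the list median as a black bar. Red and blue points passed the test. No Notch gene is colored, collagens, integrins and axon guidance genes have medians of −0.36, −0.55 and −0.27, and cancer-testis genes spread to both sides.

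Among secreted signals, INHBA, FST, IL11, IL24 and EREG were called above the parental level. INHBA, the activin A subunit, measured 27.8, 17.7 and 28.8 CPM in Jag1WT and 161, 70.3 and 120 CPM in the rescue (log2 fold change 2.21 ± 0.30 SE, adjusted p = 0.0108). FST, the activin-binding follistatin, measured 12.1, 14.4 and 12.4 CPM against 43.8, 60.3 and 55.3 CPM (log2 fold change 2.01 ± 0.16 SE, adjusted p = 0.000814), and Jag1KO was at the rescue's level with 49.5 ± 11.1 CPM. These were the 2 genes called among 28 of the TGFβ pathway, beside 3.47% of all genes, and the list median was −0.11. IL11, a cytokine of the interleukin-6 family, rose from 9.14 ± 2.78 to 42.0 ± 3.70 CPM and IL24 from 21.0 ± 8.20 to 52.7 ± 9.30 CPM, while CXCR4 and PTGES were the 2 of 24 cytokine-list genes called lower. Counts in this list and in those named next stand beside 1.49% of all genes called higher and 1.99% called lower. Of 12 genes of the EGF receptor family and its ligands, EREG was called higher (341 ± 18.8 against 583 ± 30.0 CPM) and NRG2 lower (2.75 ± 0.195 against 0.798 ± 0.123 CPM). NRG2 was under 1 CPM in all rescue libraries and passed the filter only through Jag1WT. Of 29 Wnt pathway genes, the receptors FZD1 (27.1 ± 1.74 against 12.3 ± 2.31 CPM) and LRP5 (211 ± 47.4 against 115 ± 12 CPM) were called lower, as was the coactivator WWTR1, or TAZ, among 21 YAP and TEAD genes (153 ± 15.6 against 93.8 ± 14.5 CPM). The list medians were 0.27 for cytokines, −0.22 for the EGF receptor family, −0.086 for the Wnt pathway and 0.15 for YAP and TEAD genes. With the block, calls numbered 4 higher and 1 lower in the TGFβ pathway, 5 higher among cytokines, 1 higher and 8 lower in the Wnt pathway, 2 each way for YAP and TEAD genes and 2 lower in the EGF receptor family. INHBA, EREG, FZD1 and LRP5 lost the call without Jag1WT replicate 1 or 3 or Jag1KO + rescue replicate 3 (adjusted p up to 0.0662, 0.0799, 0.103 and 0.143). IL24, WWTR1 and NRG2 did so without any Jag1WT library or Jag1KO + rescue replicate 3 (up to 0.148, 0.172 and 0.0804). EREG was not called against siCtrl, and neither EREG nor IL24 with all 18 libraries, nor IL24 with library size alone.

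The ATF4 list held 3 calls, all higher. Over all 12843 genes, 1.49% were called higher and 6354 had a positive log2 fold change. Of 34 tested genes of the ATF4 response, 28 had a positive log2 fold change (median 0.32) and 3 were called higher, ATF3 (44.6, 65.6 and 53.9 CPM against 134, 103 and 155 CPM), NUPR1 (75.2 ± 4.07 against 126 ± 26.1 CPM) and the cystathionase CTH (221 ± 17.6 against 365 ± 68.8 CPM). With the block, 5 were called higher and 1 lower. Jag1KO libraries gave 65.4 ± 4.12 CPM for ATF3 and 232 ± 57.6 CPM for CTH. None of the 3 calls held with all 18 libraries in 1 fit, NUPR1 and CTH were not called against siCtrl, and NUPR1 and CTH were called without Jag1KO + rescue replicate 2 but not without any other library (adjusted p up to 0.186 and 0.203). ATF3 was not called without Jag1WT replicate 1 or 3 or Jag1KO + rescue replicate 3 (up to 0.0976).

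Interferon-stimulated genes gave 1 higher and 3 lower of 38 tested (median −0.11), beside 1.49% and 1.99% of all genes. OAS2, an antiviral RNA sensor, measured 17.7, 14.3 and 15.9 CPM in Jag1WT and 5.11, 6.65 and 6.62 CPM in the rescue (log2 fold change −1.41 ± 0.18 SE, adjusted p = 0.00847), and the guanylate-binding protein GBP1 21.4 ± 0.403 against 11.7 ± 0.842 CPM. BST2, or tetherin, was at 2.99 ± 0.0216 against 1.24 ± 0.200 CPM, whereas IFI27 was higher (11.0 ± 0.121 against 25.5 ± 3.45 CPM). Of 16 genes of MHC class I presentation, NLRC5, their transactivator, was called lower (14.3 ± 1.02 against 8.82 ± 0.461 CPM). With the block 8 interferon-stimulated and 2 MHC class I genes were called lower. GBP1, BST2 and NLRC5 were not called with all 18 libraries, nor when any Jag1WT library was left out (adjusted p up to 0.110, 0.168 and 0.183). NLRC5 was not called against siCtrl. OAS2 and IFI27 were not called without Jag1WT replicate 3 or Jag1KO + rescue replicate 3 and, for OAS2, Jag1WT replicate 1 (up to 0.0664 and 0.0605).

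Lists of growth and metabolism genes held 0 to 2 calls each, beside 3.47% of all genes tested. None of 25 cholesterol synthesis genes, 82 nuclear-encoded genes of oxidative phosphorylation, 54 G2/M genes, 24 cyclins and CDK inhibitors or 15 EMT and stem cell markers was called, and the medians were 0.017, 0.055, 0.063, 0.20 and 0.14. IDI1, CKS2 and CCNE2 had the smallest p of their lists (adjusted p 0.0872, 0.304 and 0.0706) and were called with the block, at log2 fold changes of 0.59, 0.64 and 1.04, and NDUFV2 had an adjusted p of 0.0705. With the block the calls in these 5 lists were 2 higher, 2 lower, 1 each way, 3 higher, and 2 higher and 1 lower. Of 43 S-phase genes ATAD2 was called higher (32.5 ± 5.62 against 59.2 ± 9.36 CPM), of 82 cytosolic ribosomal protein genes RPL24 and RPL22L1 (215 ± 10.2 against 371 ± 79.3 CPM and 36.7 ± 5.83 against 58.3 ± 3.62 CPM), and of 34 hypoxia and glycolysis genes the vasodilator peptide gene ADM (37.1 ± 7.01 against 61.1 ± 3.50 CPM). With the block 3 S-phase genes were called higher and 5 hypoxia and glycolysis genes lower. Each of these 4 calls ended when Jag1WT replicate 1 or 2 was left out, or Jag1KO + rescue replicate 3 (highest adjusted p 0.171, 0.180, 0.171 and 0.180), and each ended in at least 1 of the fits with siCtrl, with all 18 libraries or with library size alone. CKS2 itself ran from 15.3 to 44.1 CPM within Jag1KO.

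Cancer-testis genes, which in healthy adults are transcribed mainly in male germ cells and lie mostly on the X chromosome, had calls in both directions. Of the 44 listed, 18 were tested, and 9 were called higher and 5 lower, beside 1.49% and 1.99% of all genes tested. A gene nearly silent in 1 group, such as MAGEB2 in the rescue, passed the filter only through the other group. These counts therefore favor a difference. The X chromosome as a whole had 22 genes called higher and 18 lower of 460 tested, 4.78% and 3.91%. Runs of neighboring genes were among them. From base 141002594 to 142205290 of X, there were 8 genes tested, of which SPANXB1, SPANXC, SPANXA1, SPANXA2, SPANXD, MAGEC1 and MAGEC2 were called higher and LDOC1 lower. Between bases 152698794 and 152760219, MAGEA2B, CSAG1, MAGEA12 and CSAG3 were called lower and their neighbor MAGEA3 higher. Both runs were picked after the values were seen. Since promoters of this class are known to be silenced by methylation of CG dinucleotides, the 250 bases before the start are shown for 3 genes of the first run, with CG in capitals (RefSeq, GRCh38.p14). They are MAGEC1 on the plus strand at chrX:141903644-141903893, MAGEC2 on the minus strand at chrX:142205291-142205540 and SPANXB1 on the plus strand at chrX:141002344-141002593.
MAGEC1: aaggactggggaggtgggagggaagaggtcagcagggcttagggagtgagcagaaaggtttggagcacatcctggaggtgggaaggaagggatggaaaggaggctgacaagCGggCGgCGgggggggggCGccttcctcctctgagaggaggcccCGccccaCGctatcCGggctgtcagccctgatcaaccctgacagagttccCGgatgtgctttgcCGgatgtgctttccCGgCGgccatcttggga
MAGEC2: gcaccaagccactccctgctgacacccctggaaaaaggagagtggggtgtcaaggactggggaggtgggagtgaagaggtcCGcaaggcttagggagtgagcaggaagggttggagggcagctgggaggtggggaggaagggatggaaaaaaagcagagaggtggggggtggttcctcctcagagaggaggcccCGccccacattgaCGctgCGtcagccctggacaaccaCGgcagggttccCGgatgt
SPANXB1: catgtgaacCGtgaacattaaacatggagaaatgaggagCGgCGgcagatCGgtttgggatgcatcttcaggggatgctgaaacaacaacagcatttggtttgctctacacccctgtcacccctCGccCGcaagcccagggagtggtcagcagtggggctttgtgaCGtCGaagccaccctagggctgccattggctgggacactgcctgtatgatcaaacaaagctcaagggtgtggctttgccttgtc
They held 11, 6 and 8 CG dinucleotides, and 16.6, 8.93 and 11.8% of the 10184 promoters of tested genes held fewer, the median being 21. Methylation was not measured.

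MAGEC1 measured 4.23, 5.26 and 5.35 CPM in Jag1WT and 92.6, 73.5 and 93.4 CPM in the rescue (log2 fold change 4.10 ± 0.16 SE, adjusted p = 2.12e-05). Jag1KO lay between at 20.3, 19.8 and 24.7 CPM, and Jag1KO + ctrl at 43.2, 43.1 and 56.9 CPM. MAGEC2 followed the same order of means, at 10.2 ± 0.678 CPM in Jag1WT, 32.7 ± 1.64 CPM in Jag1KO, 52.7 ± 12.9 CPM in Jag1KO + ctrl and 90.3 ± 7.61 CPM in the rescue. SPANXB1, the most abundant of them, stood at 127 ± 11.4, 283 ± 25.7, 354 ± 5.62 and 471 ± 63.0 CPM. PAGE5 was 3.92 ± 0.582 CPM in Jag1WT, 12.6 ± 1.27 CPM in Jag1KO, 20.4 ± 1.49 CPM in Jag1KO + ctrl and 30.0 ± 1.37 CPM in the rescue. In each of these 4 genes no library of the 4 groups overlapped with those of the next group up. On the lower side, MAGEB2 measured 2.97, 3.83 and 2.61 CPM in Jag1WT and 0.204, 0.141 and 0.293 CPM in the rescue, with Jag1KO at 0, 0.154 and 0.191 CPM. XAGE2 was 11.5 ± 1.38 CPM in Jag1WT, 2.16 ± 0.469 CPM in the rescue and 3.52 ± 0.584 CPM in Jag1KO. MAGEC1, MAGEC2, PAGE5, MAGEB2, XAGE2 and the 5 SPANX genes were called in all 6 fits without a library, and MAGEA3, CSAG1, MAGEA12 and CSAG3 were not called when any Jag1WT library or Jag1KO + rescue replicate 3 was left out (adjusted p up to 0.180, 0.103, 0.103 and 0.171). MAGEA2B and LDOC1 were not called without Jag1WT replicate 1 or 3 or Jag1KO + rescue replicate 3 (up to 0.0866 and 0.0761). The SPANX genes and some of the MAGEA, XAGE and CSAG genes have near-identical copies. Only uniquely mapped reads were counted, so the split among such copies is uncertain.

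**Figure D5:**
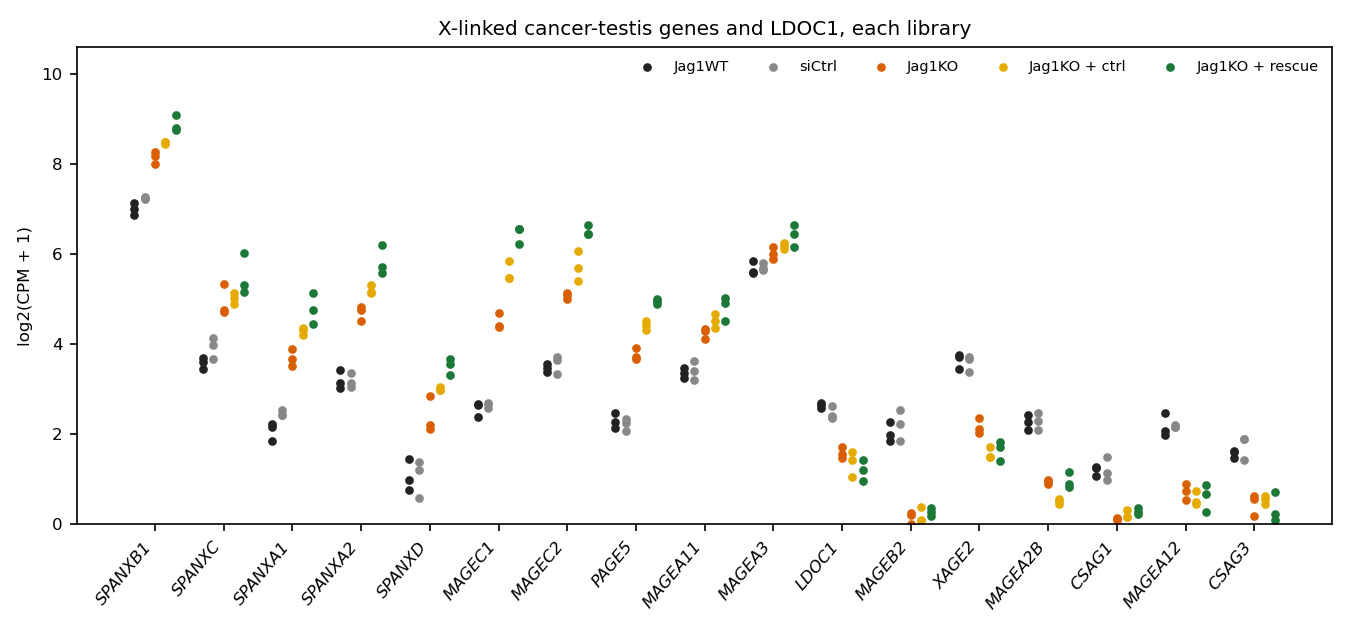
Level of 17 X-linked genes on the log2(CPM + 1) scale in each library of 5 groups, 3 points per group. For the genes from SPANXB1 to MAGEA3 the Jag1KO + rescue points are highest on average and the Jag1WT and siCtrl points lowest, and for those from LDOC1 to CSAG3 the parental groups are highest.

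Called genes were also counted along the other chromosomes. A position was found for 12778 of the tested genes, and 241 windows of 10 Mb held at least 20 of them, with medians from −0.41 to 0.40. Of these windows, 6 had a median log2 fold change below −0.25 and 7 one above 0.25. Of all 12843 genes tested, 6489 had a negative log2 fold change, 1.99% were called lower and 1.49% higher. In the window at the tip of the short arm of chromosome 4, 59 of 66 genes had a negative value (median −0.37) and 10 were called lower, or 15.2%, among them the corepressor CTBP1 (88.5, 96.4 and 98.5 CPM against 54.8, 62.4 and 56.2 CPM) and the endoplasmic reticulum protein WFS1 (103 ± 13.5 against 53.3 ± 14.2 CPM). Both were called only without Jag1KO + rescue replicate 1 or 2 among the fits that left out a library (adjusted p up to 0.103 and 0.179). In Jag1KO and Jag1KO + ctrl against siCtrl, which use no library of the rescue comparison, the median difference of log2(CPM + 1) in this window was −0.26 and −0.33. The lowest window, on chromosome 15 from 80 to 90 Mb, had a median of −0.41 in the rescue, −0.03 in Jag1KO against siCtrl and −0.16 in Jag1KO + ctrl against siCtrl. The highest window, on chromosome 3 from 100 to 110 Mb, had a median of 0.40 with 4 of 26 genes called higher, and medians of 0.15 and 0.23 in Jag1KO and Jag1KO + ctrl against siCtrl. The windows were picked for their values, and DNA copy number was not measured.

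How much of the remaining difference the rescued cells shared with the knockout cells from which they were made was read from libraries outside the comparison, a step added after the values were seen. Of the 191 genes called higher in rescue against Jag1WT, 86.4% had a higher mean log2(CPM + 1) in Jag1KO than in siCtrl, beside 48.9% of all genes tested. In 90 of them (47.1%, beside 6.24%) all Jag1KO libraries lay above all siCtrl libraries, and in 82 (42.9%, beside 11.6%) all Jag1KO + ctrl libraries did. Of the 255 genes called lower, 91.0% had a lower mean in Jag1KO than in siCtrl, beside 51.1%, and in 142 (55.7%, beside 7.71%) the Jag1KO libraries lay below all siCtrl libraries. For Jag1KO + ctrl this held in 104 (40.8%, beside 12%). The genes called higher had a median difference of 0.96 on the log2(CPM + 1) scale between rescue and Jag1WT and of 0.32 between Jag1KO and siCtrl, and those called lower of −0.90 and −0.37. The rescue to Jag1WT difference is the one that chose the genes, so the sizes are not comparable. Genes of a reversed kind were few. All Jag1KO libraries lay below siCtrl in 1 of the 191 (0.524%, beside 7.71%) and above it in 6 of the 255 (2.35%, beside 6.24%). Jag1KO and Jag1KO + ctrl both lay above siCtrl in 34% of the genes called higher (beside 3.36%). Both lay below it in 33.3% of those called lower (beside 4.2%). In 43.5% and 32.2% of the genes called higher and lower, both groups overlapped siCtrl, beside 70.2% of all genes.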

How the data were processed

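RNA was sequenced from MDA-MB-231 spheroids with a stranded mRNA kit. The authors aligned the reads to hg38 and counted uniquely mapped reads per gene (featureCounts, per the submitters' processing notes, which also name edgeR 3.28.0, R 3.6.1 and MultiQC 1.5; the aligner is not given in the sources used here), and these gene counts were deposited. The authors also deposited a CPM signal, scaled by trimmed mean of M values (TMM), and RPKM values, which divide by gene length; 3 RPKM columns match no sample and were not used. Levels are the deposited CPM.

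Groups came from the sample titles. Genes above 1 CPM in at least 3 of 6 libraries were tested with the quasi-likelihood test of edgeR 4.0.16 (R 4.3.3) with TMM factors and Benjamini-Hochberg adjustment, which gave every adjusted p in the text, in place of the authors' ROTS test, and was checked on simulated counts. A gene was called at an adjusted p below 0.05 and a fold change above 1.5. Intervals are 95% confidence intervals of the fitted log2 fold change. Genes with no symbol (292) took at most 0.0442% of reads in the libraries of the 5 groups used. No replicates were near-identical. Deviations of same-numbered Jag1WT and rescue libraries from their group means correlated at 0.540, 0.601 and 0.369, so the numbers pair the samples. The main test, and each call and interval taken from it, left this pairing out. A fit with the replicate number as a block was an alternative, besides limma 3.58.1, DESeq2 1.42.0, other scalings and filters, all 18 libraries, siCtrl as reference and each library left out.

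Named were JAG1 and Notch genes, the 8 called genes per direction with the largest change at 5 CPM or more, up to 3 called per list and direction with the smallest adjusted p (or the member with the smallest p where none was called), and all JAG1-linked genes. Others are said to be picked after their values were seen or are given as examples from a list or region. Some genes that this rule names are not reported here. The members and lists were chosen with earlier results of these data known. Cell cycle lists came from Seurat 5.3.0. Promoters came from RefSeq.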

Additional observations from a re-analysis of the deposited data

How the results depend on the processing

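Against 191 genes called higher and 255 lower, DESeq2 called 345 and 535, dropping the filter on CPM gave 311 and 435, scaling by library size alone gave 146 and 399, and a fit of all 18 libraries gave 215 and 439. Leaving out 1 library gave 42 to 542 higher and 20 to 725 lower, the highest counts coming without Jag1KO + rescue replicate 2. With the replicate number as a block, 453 were called higher and 892 lower. Among the genes named by rule, the block made calls of DLK2, NRARP, IDI1, CCNE2, CKS2, KRT79, ITGB3 and AFAP1L2 and changed no other call. The limma fit (209 and 243), RLE factors (200 and 242) and the filter of edgeR (200 and 250) stayed within 1.5 times of the main counts. The fold change of JAG1 was not called under any alternative. The causes of these shifts were not tested. With 3 libraries a group, genes near 1 CPM rest on few reads, and modest changes in them could not be told from the spread.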
